A study of Homo sapiens with 14 samples.

Results

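The genes described here are 35 human genes of cholesterol and fatty acid synthesis: the enzymes of the mevalonate and sterol steps, the sterol-sensing proteins and transcription factors that regulate them, sterol carriers, and the enzymes that make, elongate and desaturate fatty acids. They were chosen by name and matched to 35 of the 18006 genes in the deposited table of read counts, and 33 of them had enough reads to be tested, among 12080 genes tested in all. HEK 293 is a line derived from human embryonic kidney. CFIm25 (gene NUDT21) and CFIm68 (gene CPSF6) are subunits of mammalian cleavage factor I, which binds pre-mRNA and helps choose where its 3′ end is cut and polyadenylated. The study varied the level of each subunit and measured RNA in 14 libraries: CFIm25 was knocked down in 2 and overexpressed in 3, CFIm68 was knocked down in 3 and overexpressed in 3, and 3 were controls labelled wild type. Knockdown was by siRNA delivered with Lipofectamine RNAiMAX. The sources used here do not say what siRNA or vector the controls carried, how the overexpressing cells were made, or whether they are single clones. The labels do not tie replicates to separate cultures, and p-values therefore reflect library-to-library spread that may be technical. Whether a lower bulk level reflects fewer cells carrying an RNA or less of it in each cell cannot be told apart.

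Cholesterol is built from acetyl-CoA: thiolase and synthase steps lead to mevalonate, which is phosphorylated and decarboxylated to isoprene units, joined to farnesyl diphosphate and then to squalene, and closed and trimmed to cholesterol. When membrane sterol is scarce, SCAP carries the transcription factors SREBP1 (gene SREBF1) and SREBP2 (gene SREBF2) to the Golgi, where they are cut free to switch on sterol and fatty acid genes. When sterol is plentiful, INSIG proteins hold SCAP in the endoplasmic reticulum. INSIG1 is itself a target of the SREBPs, and FASN, SCD and ELOVL6 are targets associated mainly with SREBP1.

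Library totals were 16437307 to 33895308 counts in the CFIm25 groups, 15822467 to 28963694 in the CFIm68 groups and 17734490 to 18385536 in control. Levels below are CPM, read counts scaled by the TMM-adjusted size of each library, and errors on means are SDs. NUDT21 averaged 53.8 ± 1.203 CPM in CFIm25 knockdown (n = 2) and 729 ± 55.6 CPM in CFIm25 overexpression (n = 3), against 514 ± 19.6 CPM in control (n = 3). CPSF6 averaged 41.6 ± 0.996 CPM in CFIm68 knockdown and 730.2 ± 17.4 CPM in CFIm68 overexpression, against 268 ± 5.78 CPM in control (n = 3 each), so each targeted gene moved as its label says. CPSF6 also averaged 533 ± 10.2 CPM in CFIm25 knockdown, and NUDT21 232 ± 9.27 CPM in CFIm68 knockdown. NUDT21 was raised in CFIm68 overexpression as well, at 597 ± 47.9 CPM (549.7 to 645.5 CPM, against 500.4 to 536.6 CPM in control). CPSF6 averaged 252 ± 13.3 CPM in CFIm25 overexpression and overlapped control. All 10 listed HEK 293 markers were detected in every group, with a summed level of 1344 to 1389 CPM in CFIm25 knockdown, 1723 to 1809.9 CPM in CFIm25 overexpression, 1389 to 1425 CPM in CFIm68 knockdown, 1499.8 to 1531 CPM in CFIm68 overexpression and 1533 to 1605 CPM in control. VIM had the highest level of these 10, at 484 to 911 CPM across libraries. In the test described below VIM was lower in both knockdowns and higher in CFIm25 overexpression. NEFM was at 0.063 to 0.852 CPM, LHX1 at 0.283 to 1.69 CPM and PAX2 at 1.70 to 4.93 CPM. The 5 hepatocyte markers summed to at most 1.68 CPM in any library, the 5 adipocyte markers to at most 0.364 CPM and the 5 blood cell markers to at most 0.348 CPM.

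The clearest movement of the pathway was a fall in CFIm25 overexpression. There 22 of the 33 tested members were lower than in control and 2 were higher (edgeR quasi-likelihood test, adjusted p under 0.05 over all genes tested), with a median log2 change of -0.36, while 29.1% of all tested genes were lower and 27.7% higher, with a median of -0.00. In CFIm25 knockdown 13 members were lower and 7 higher, against 23.2% and 24.4% of all genes. In CFIm68 knockdown 11 were lower and 10 higher, against 28.1% and 28.3% of all genes, and the medians of the members were 0.02 in CFIm25 knockdown and 0.06 in CFIm68 knockdown. In CFIm68 overexpression 11 were higher and 7 lower, against 14.5% and 15.4% of all genes, with a median of 0.04. Most of the rises in CFIm68 overexpression were small: 6 members passed as higher without CFIm68 overexpression replicate 2 and 7 without control replicate 1, where all libraries gave 11. With the median change of the 50 nearest genes on the chromosome taken off each gene, 4 passed as higher in CFIm68 overexpression and 5 in CFIm25 overexpression. The number of members lower in CFIm25 overexpression was 22 or 23 under every other setting tried and without any single library, but they were not always the same genes: with the neighbours' medians removed FDPS and INSIG2 no longer passed as lower, and SCAP and ACSS2 did. The 4 comparisons share the same 3 controls and are not independent. Among marker lists of other cells, 4 keratinocyte and HeLa-type markers summed to 4.91 to 6.99 CPM in CFIm25 knockdown, 10.3 to 13.2 CPM in CFIm25 overexpression, 9.67 to 14.2 CPM in CFIm68 knockdown and 2.39 to 2.82 CPM in CFIm68 overexpression, against 3.94 to 4.42 CPM in control, nearly all of it KRT17, with KRT5, KRT14 and KRT6A at or near 0. The 5 fibroblast markers summed to 65.6 to 67.2 CPM in CFIm68 knockdown and 25.1 to 28.6 CPM in CFIm68 overexpression, with 46.9 to 57.4 CPM in the CFIm25 groups, against 50.7 to 55.2 CPM in control, nearly all of it COL1A1, with COL1A2 and DCN at 0, and the part of either list in the changes above was not tested.

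**Figure D1:**
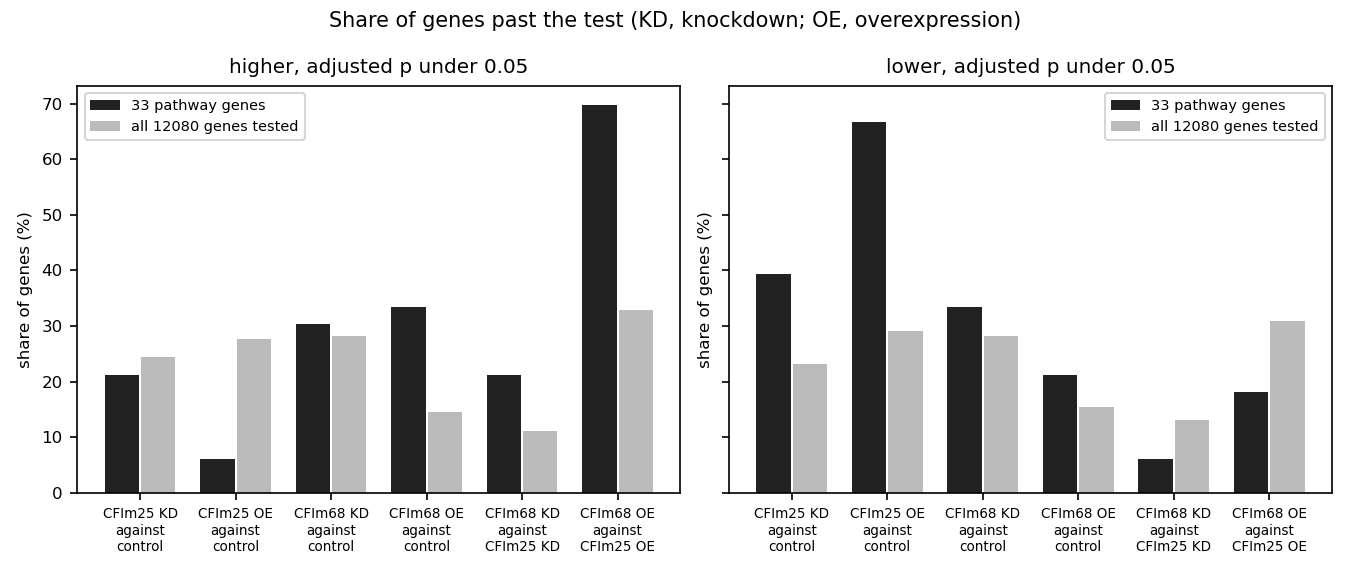
Bars give the share (%) of the 33 tested pathway genes (black) and of all 12080 tested genes (grey) that were higher (left) or lower (right) at an adjusted p under 0.05, for each of 6 comparisons. The black bar for lower genes in CFIm25 overexpression stands for 22 of 33 genes, beside a grey bar of 29.1%, and the black bar for higher genes in CFIm68 overexpression against CFIm25 overexpression stands for 23 of 33, beside 32.9%.

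By step of the pathway, the fall in CFIm25 overexpression was broadest among the sterol enzymes. It took in 5 of 6 mevalonate enzymes with a median log2 change of -0.77, 10 of 12 squalene and sterol enzymes with a median of -0.45, 3 of 5 sterol-sensing genes and 3 of 7 tested fatty acid enzymes. No member of the mevalonate, squalene and sterol, transport or fatty acid groups was higher there. Among all tested genes 29.1% were lower and 27.7% higher in CFIm25 overexpression. The steps hold few genes, and their counts were not tested against the shares of all genes. The 2 members that were higher were SREBF1, whose product leads the fatty acid arm, and GGPS1, which makes geranylgeranyl diphosphate. In the knockdowns the same steps were divided: among squalene and sterol enzymes 3 rose and 4 fell in CFIm25 knockdown, and 4 rose and 6 fell in CFIm68 knockdown. In CFIm68 overexpression 6 of these 12 enzymes rose and 2 fell. The plot of changes against control sets these patterns side by side.

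**Figure D2:**
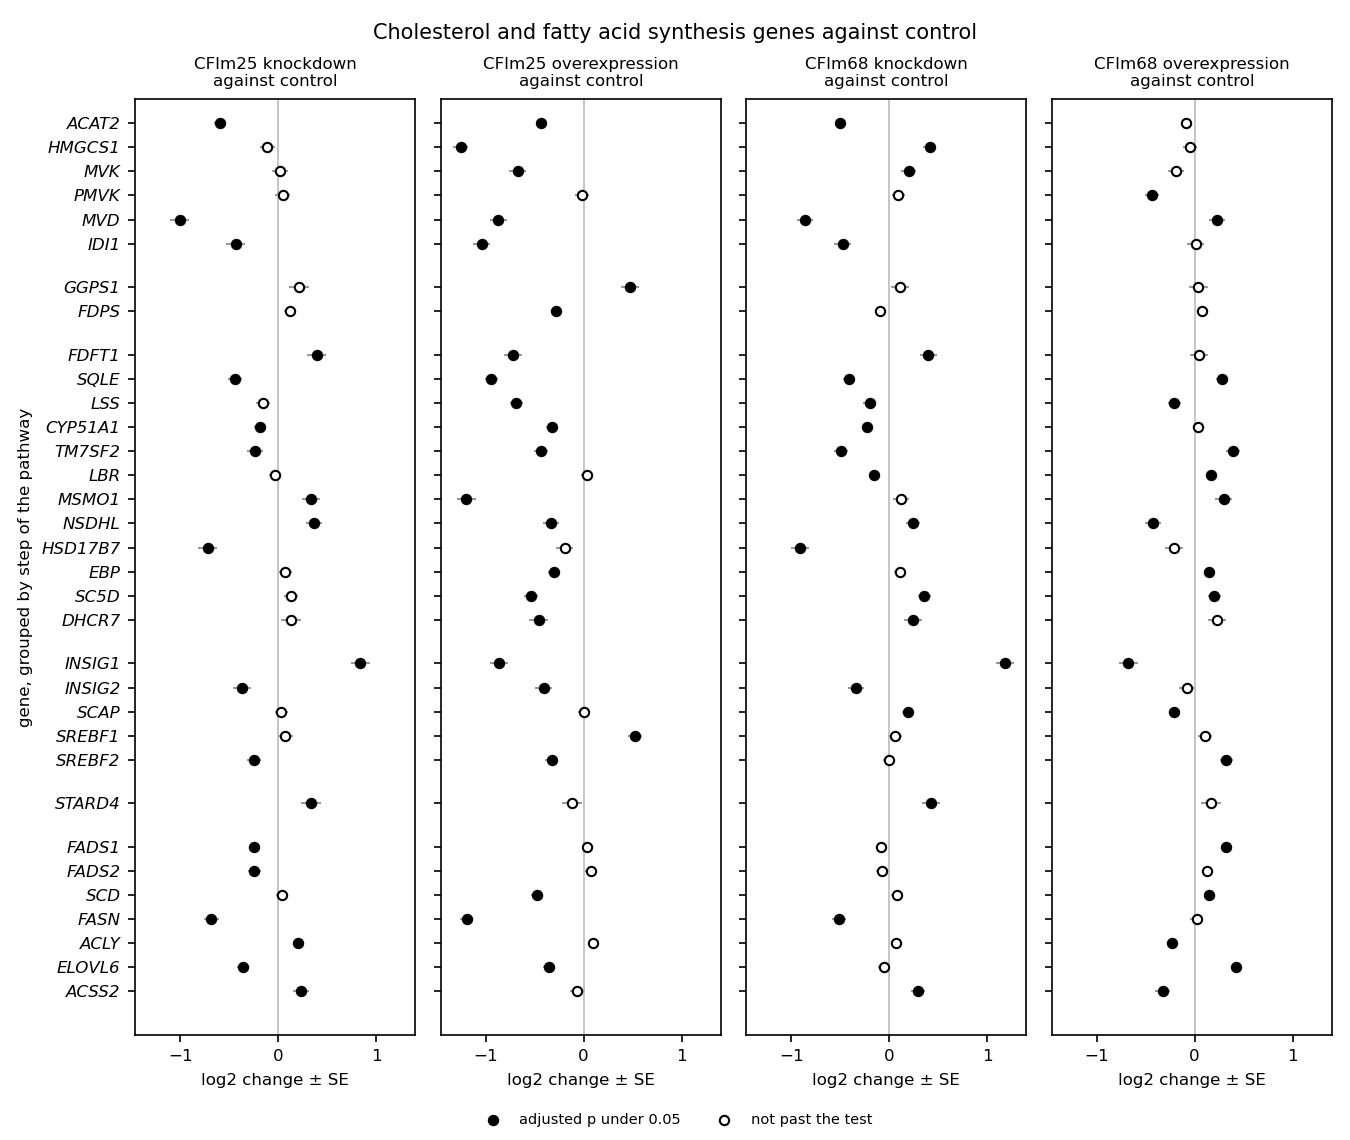
Log2 change against control (horizontal axis, log2 scale) with its SE for each of the 33 tested genes, grouped by step of the pathway, in the 4 perturbed groups. Filled points passed the edgeR test and open points did not. In CFIm25 overexpression most filled points lie left of 0, down to -1.25 for HMGCS1, and INSIG1 lies right of 0 in both knockdowns and left of 0 in both overexpressions.

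The start regions of the genes that moved most against control are shown because SREBPs act on such regions together with NF-Y and SP1. RefSeq windows on GRCh38.p14 from 250 bases before to 50 after the start site were found for 31 of the 35 members, and for 27305 genes in all. They were searched on both strands for TCACNCCAC (a sterol regulatory element core), CACGTG (an E-box, which SREBP1 can also bind), CCAAT (the NF-Y site) and GGGCGG (an SP1 site), counting a gene once. CCAAT was found in 22 of 31 members (71.0%), against 39.7% of all genes, and GGGCGG in 29 (93.5%), against 48.3%. CACGTG was found in 4 members, LSS, SC5D, INSIG1 and SCAP, against 8.77% of all genes. TCACNCCAC was found in 1, SREBF2, against 1.39%. The shares of all genes are over the 27305 with a window, tested here or not. The members were not compared with the 12080 tested genes alone, so the gaps cannot be assigned to the pathway. These are matches of letters, and no binding was measured. The bases from -200 to -21 relative to the start are printed 5′ to 3′ on the strand of the gene for INSIG1, HMGCS1, MSMO1, IDI1 and MVD, which changed most among members with a window, and for SREBF2, which holds the TCACNCCAC match; capitals mark the 4 motifs on either strand, and neighbouring capitals can belong to overlapping matches.
INSIG1 (chr7:155297678-155297857, plus strand): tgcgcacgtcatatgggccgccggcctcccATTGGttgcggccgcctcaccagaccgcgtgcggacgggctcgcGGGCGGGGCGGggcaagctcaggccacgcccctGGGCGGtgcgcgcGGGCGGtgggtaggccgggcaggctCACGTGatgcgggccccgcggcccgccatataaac
HMGCS1 (chr5:43313433-43313612, minus strand): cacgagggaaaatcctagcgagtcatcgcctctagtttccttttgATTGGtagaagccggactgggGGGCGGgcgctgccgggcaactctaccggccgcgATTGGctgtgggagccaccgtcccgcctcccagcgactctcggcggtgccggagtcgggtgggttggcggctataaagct
MSMO1 (chr4:165327469-165327648, plus strand): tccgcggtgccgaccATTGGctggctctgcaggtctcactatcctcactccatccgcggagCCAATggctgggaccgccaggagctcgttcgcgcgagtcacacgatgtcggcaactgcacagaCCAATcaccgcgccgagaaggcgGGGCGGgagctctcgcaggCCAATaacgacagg
IDI1 (chr10:1048907-1049086, minus strand): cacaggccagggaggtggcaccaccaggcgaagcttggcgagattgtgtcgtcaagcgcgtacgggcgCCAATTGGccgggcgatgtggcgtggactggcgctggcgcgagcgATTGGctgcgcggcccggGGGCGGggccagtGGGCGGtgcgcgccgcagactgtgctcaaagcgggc
MVD (chr16:88663112-88663291, minus strand): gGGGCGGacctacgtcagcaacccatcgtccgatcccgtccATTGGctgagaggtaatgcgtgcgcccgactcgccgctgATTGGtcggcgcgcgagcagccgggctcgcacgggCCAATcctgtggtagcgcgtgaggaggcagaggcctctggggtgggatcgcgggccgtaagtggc
SREBF2 (chr22:41832905-41833084, plus strand): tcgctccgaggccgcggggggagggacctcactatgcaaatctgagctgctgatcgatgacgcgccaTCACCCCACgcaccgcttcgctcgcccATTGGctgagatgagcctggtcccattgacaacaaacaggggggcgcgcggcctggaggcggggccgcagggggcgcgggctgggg
The printed stretch of MSMO1 holds 4 CCAAT matches, IDI1 and MVD 3 each, HMGCS1 2, and INSIG1 and SREBF2 1 each. IDI1 and HMGCS1 have further windows that are not printed, and their CCAAT counts differ with the window taken. INSIG1 holds 4 GGGCGG matches and the only CACGTG among these 6. MSMO1 and HMGCS1, which fell most in CFIm25 overexpression, and INSIG1, which rose in both knockdowns, differ in these counts, and no test was made of them.

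Of all 33 tested members, the sterol sensor's partner INSIG1 changed most in CFIm68 knockdown and in CFIm68 overexpression. INSIG1 (ENSG00000186480, hg38 chr7:155297776-155310235) was at 198 and 232 CPM in the CFIm25 knockdown libraries and 277, 269 and 273 CPM in the CFIm68 knockdown libraries, against 125, 126 and 111 CPM in control. It was 66.9, 81.1 and 50.4 CPM in CFIm25 overexpression and 70.7, 79.5 and 75.6 CPM in CFIm68 overexpression. All knockdown libraries lay above the controls and all overexpression libraries below them. It was 1.79-fold higher in CFIm25 knockdown (log2 change 0.84 ± 0.10, edgeR adjusted p = 7.2e-08) and 2.27-fold higher in CFIm68 knockdown (log2 change 1.18 ± 0.09, edgeR adjusted p = 7.4e-12). It was 1.82-fold lower in CFIm25 overexpression (log2 change -0.86 ± 0.09, edgeR adjusted p = 1.1e-08) and 1.60-fold lower in CFIm68 overexpression (-0.68 ± 0.09, edgeR adjusted p = 3.6e-06). The 50 genes nearest to it on chromosome 7 had median log2 changes of -0.07, 0.17, 0.03 and -0.09 in CFIm25 knockdown, CFIm25 overexpression, CFIm68 knockdown and CFIm68 overexpression, and all 4 calls stood with those medians removed.

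INSIG2, the paralogue that also retains SCAP, fell with INSIG1 in CFIm25 overexpression but did not rise with it in the knockdowns. It was at 21.2 and 21.8 CPM in CFIm25 knockdown, 23.3, 20.5 and 18.5 CPM in CFIm25 overexpression and 22.5, 22.4 and 21.0 CPM in CFIm68 knockdown, against 29.1, 28.7 and 25.3 CPM in control, and fell in all 3 groups (log2 changes -0.36, -0.41 and -0.34, edgeR adjusted p = 0.0015, 1.6e-04 and 8.8e-04). Its 50 neighbours on chromosome 2 had a median log2 change of -0.43 in CFIm25 overexpression, and with that removed the change of INSIG2 was 0.03, edgeR adjusted p = 0.811. In CFIm68 knockdown the neighbours' median was -0.22, and with it removed INSIG2 did not pass (-0.11, edgeR adjusted p = 0.237). Per kilobase of exon, INSIG1 exceeded INSIG2 by 10.1 and 11.5 times in the CFIm25 knockdown libraries and 13.4, 13.0 and 14.1 times in CFIm68 knockdown. The ratio was 3.10, 4.28 and 2.95 in CFIm25 overexpression, 2.94, 3.51 and 2.89 in CFIm68 overexpression and 4.63, 4.73 and 4.76 in control. Knockdown and overexpression ratios lay on opposite sides of the control range, with no overlap.

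The 2 genes of the SREBPs moved to opposite sides of control in CFIm25 overexpression. SREBF1 was at 137, 161 and 171 CPM in CFIm25 overexpression, against 105, 114 and 107 CPM in control (log2 change 0.52 ± 0.07, edgeR adjusted p = 4.2e-07), with no overlap, and it passed with the medians of its 50 neighbours removed (0.30, edgeR adjusted p = 8.3e-04). SREBF2 was at 76.3, 89.4 and 78.2 CPM in CFIm25 overexpression, against the same control libraries at 101, 104 and 100.1 CPM (log2 change -0.32 ± 0.06, edgeR adjusted p = 1.1e-04), lower in each of the 3 libraries, and at -0.21 with the neighbours' medians removed. In CFIm68 overexpression SREBF2 was at 114, 130.4 and 137 CPM and passed as higher (log2 change 0.32 ± 0.06, edgeR adjusted p = 3.0e-04), while SREBF1, at 104, 118 and 130.4 CPM, overlapped control and did not pass (log2 change 0.11 ± 0.07, edgeR adjusted p = 0.272). Without CFIm68 overexpression replicate 1 SREBF1 passed as higher (0.19, edgeR adjusted p = 0.047). With the neighbours' medians removed SREBF1 did not pass there (0.17, edgeR adjusted p = 0.0889). In CFIm25 knockdown SREBF2 was at 87.4 and 84.2 CPM and lower (log2 change -0.25 ± 0.07, edgeR adjusted p = 0.00553), which did not pass without CFIm25 knockdown replicate 2 (log2 change -0.22, edgeR adjusted p = 0.0691). Per kilobase of exon, the ratio of SREBF1 to SREBF2 was 1.69, 1.70 and 2.05 in CFIm25 overexpression and 1.26 and 1.26 in CFIm25 knockdown. It was 1.07, 1.05 and 1.02 in CFIm68 knockdown, 0.856, 0.850 and 0.893 in CFIm68 overexpression and 0.979, 1.03 and 1.01 in control. SCAP, the sterol-sensing escort, had log2 changes of 0.03, 0.01, 0.19 and -0.21 in CFIm25 knockdown, CFIm25 overexpression, CFIm68 knockdown and CFIm68 overexpression. The rise of SCAP in CFIm68 knockdown and its fall in CFIm68 overexpression passed the test. With the neighbours' medians removed neither passed (0.08, edgeR adjusted p = 0.228 in CFIm68 knockdown and -0.06, edgeR adjusted p = 0.536 in CFIm68 overexpression), and without CFIm68 overexpression replicate 1 the fall did not pass either. Its chromosome 3 neighbours had a median of 0.29 in CFIm25 overexpression, and with that removed SCAP was lower there (-0.28, edgeR adjusted p = 2.2e-04); likewise in CFIm25 knockdown, where the neighbours' median was 0.24 (-0.21, edgeR adjusted p = 0.0114).

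**Figure D3:**
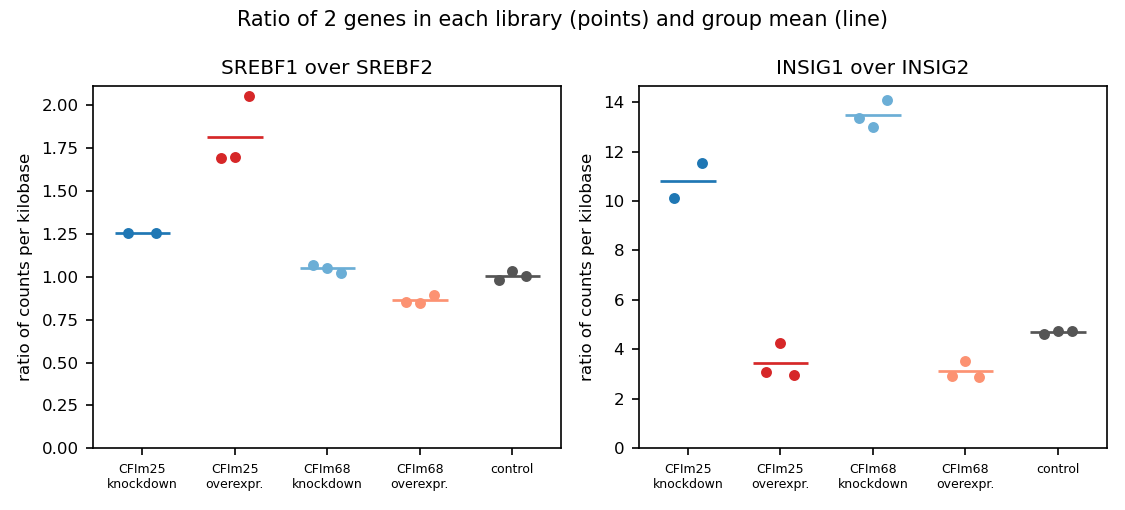
Ratio of counts per kilobase of exon (vertical axis, linear) of SREBF1 over SREBF2 (left) and of INSIG1 over INSIG2 (right) in each library, with the group mean as a line. The SREBF1 ratio reaches 2.05 in CFIm25 overexpression, and the INSIG1 ratio is at least 10.1 in every knockdown library and at most 4.76 in control.

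The mevalonate steps begin with ACAT2, the cytosolic thiolase, and HMGCS1, which makes HMG-CoA. HMGCS1 (ENSG00000112972, hg38 chr5:43289395-43313512) was at 57.0, 57.6 and 43.4 CPM in CFIm25 overexpression, against 134, 124 and 119 CPM in control, 2.38-fold lower (log2 change -1.25 ± 0.08, edgeR adjusted p = 6.0e-14). In CFIm68 knockdown it was at 168, 169 and 166 CPM and higher (log2 change 0.41 ± 0.07, edgeR adjusted p = 1.3e-05), in CFIm25 knockdown at 116 and 117 CPM (log2 change -0.11 ± 0.08, edgeR adjusted p = 0.257) and in CFIm68 overexpression at 131, 119 and 113 CPM (log2 change -0.05 ± 0.07, edgeR adjusted p = 0.634). Both CFIm25 knockdown libraries were below all controls without passing the test, and the CFIm68 overexpression libraries overlapped control. ACAT2 fell in 3 groups. It was at 127 and 130.1 CPM in CFIm25 knockdown, 156, 139.8 and 134 CPM in CFIm25 overexpression and 135, 137 and 139 CPM in CFIm68 knockdown, against 195, 188 and 198 CPM in control (log2 changes -0.59, -0.44 and -0.50, largest edgeR adjusted p = 1.1e-07). All libraries of those 3 groups were below all controls. In CFIm68 overexpression ACAT2 was at 191, 181 and 176 CPM, and 1 of the 3 libraries lay inside the control range (log2 change -0.09 ± 0.05, edgeR adjusted p = 0.248). With the neighbours' medians removed ACAT2 passed as lower there (-0.19, edgeR adjusted p = 0.0112).

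MVD, the decarboxylase that yields isopentenyl diphosphate, fell in the same 3 groups as ACAT2. It was at 18.7 and 21.5 CPM in CFIm25 knockdown, 19.4, 23.6 and 23.9 CPM in CFIm25 overexpression and 23.5, 21.6 and 22.1 CPM in CFIm68 knockdown, against 40.0, 40.2 and 41.6 CPM in control. The fall was 2.01-fold in CFIm25 knockdown (log2 change -1.01 ± 0.09, edgeR adjusted p = 1.4e-09), 1.83-fold in CFIm25 overexpression (log2 change -0.87 ± 0.09, edgeR adjusted p = 1.5e-09) and 1.81-fold in CFIm68 knockdown (log2 change -0.86 ± 0.08, edgeR adjusted p = 8.8e-10). Its neighbours on chromosome 16 had medians of -0.23, -0.22 and -0.25 in the same groups, and all 3 calls stood with those removed. In CFIm68 overexpression MVD was at 42.5, 46.9 and 53.4 CPM and just passed as higher (log2 change 0.23 ± 0.08, edgeR adjusted p = 0.031), which did not pass once the neighbours' medians were removed nor without each of 4 single libraries in turn, among them CFIm68 overexpression replicate 3 (log2 change 0.14, edgeR adjusted p = 0.23).

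IDI1, the isomerase that interconverts the isoprene units, was at 115, 109 and 76.2 CPM in CFIm25 overexpression, against 212, 198 and 210.5 CPM in control, 2.06-fold lower (log2 change -1.04 ± 0.09, edgeR adjusted p = 1.1e-10). Replicate 3 was the lowest of the CFIm25 overexpression libraries, as it was for HMGCS1, SQLE, MSMO1 and INSIG1, and all 3 were below every control. IDI1 was also lower in CFIm25 knockdown at 157 and 150.4 CPM (log2 change -0.43 ± 0.10) and in CFIm68 knockdown at 164, 141 and 141 CPM (-0.47 ± 0.09; edgeR adjusted p = 6.1e-04 and 3.4e-05). In CFIm68 overexpression it was at 222, 206 and 199 CPM and overlapped control. The kinases MVK and PMVK act between mevalonate and MVD. MVK fell in CFIm25 overexpression to 13.98, 13.7 and 12.6 CPM, against 20.7, 20.7 and 23.1 CPM in control (log2 change -0.67 ± 0.08, edgeR adjusted p = 1.3e-07). Its rise in CFIm68 knockdown (log2 change 0.20 ± 0.08, edgeR adjusted p = 0.0274) was lost without each of 5 single libraries in turn. In CFIm68 overexpression MVK did not pass in the main fit. It passed as lower there with the neighbours' medians removed (-0.26, edgeR adjusted p = 0.0262). Without CFIm68 overexpression replicate 2 it also passed as lower (-0.28, edgeR adjusted p = 0.0286). Among the 4 comparisons with control PMVK passed only in CFIm68 overexpression, at 25.6, 31.3 and 30.1 CPM, against 38.01, 38.1 and 41.6 CPM in control (log2 change -0.43 ± 0.07, edgeR adjusted p = 4.4e-05), with no overlap. In CFIm25 overexpression PMVK overlapped control (log2 change -0.02), its chromosome 1 neighbours had a median of -0.21, and with that removed it was higher (0.20, edgeR adjusted p = 0.0194).

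The isoprene units are joined by FDPS to farnesyl diphosphate and by GGPS1 to geranylgeranyl diphosphate, a lipid attached to Rab proteins. FDPS was at 279, 283 and 255 CPM in CFIm25 overexpression, against 327, 323 and 342 CPM in control, and fell (log2 change -0.28 ± 0.05, edgeR adjusted p = 1.7e-05), which did not pass once the neighbours' medians were removed (-0.09, edgeR adjusted p = 0.132). GGPS1 was at 17.2, 15.6 and 16.9 CPM there, against 13.6, 11.1 and 11.3 CPM in control, and rose (log2 change 0.47 ± 0.09, edgeR adjusted p = 1.1e-04), or by 0.26 with the neighbours' medians removed, which still passed. Neither passed against control in the other 3 groups in the main fit. In CFIm25 knockdown FDPS passed as higher with the neighbours' medians removed (0.21, edgeR adjusted p = 0.00171). It also did so without control replicate 3 (0.14, edgeR adjusted p = 0.0405), and GGPS1 without control replicate 1 (0.31, edgeR adjusted p = 0.0242). FDPS has 8 annotated pseudogenes by name, which could take or give reads depending on the counting, and GGPS1 shares exonic bases with TBCE on the same strand.

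The level of 6 genes in every library is plotted next, and shows that the CFIm25 overexpression libraries were the lowest of the 14 for HMGCS1, MSMO1, IDI1, SQLE and FASN.

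**Figure D4:**
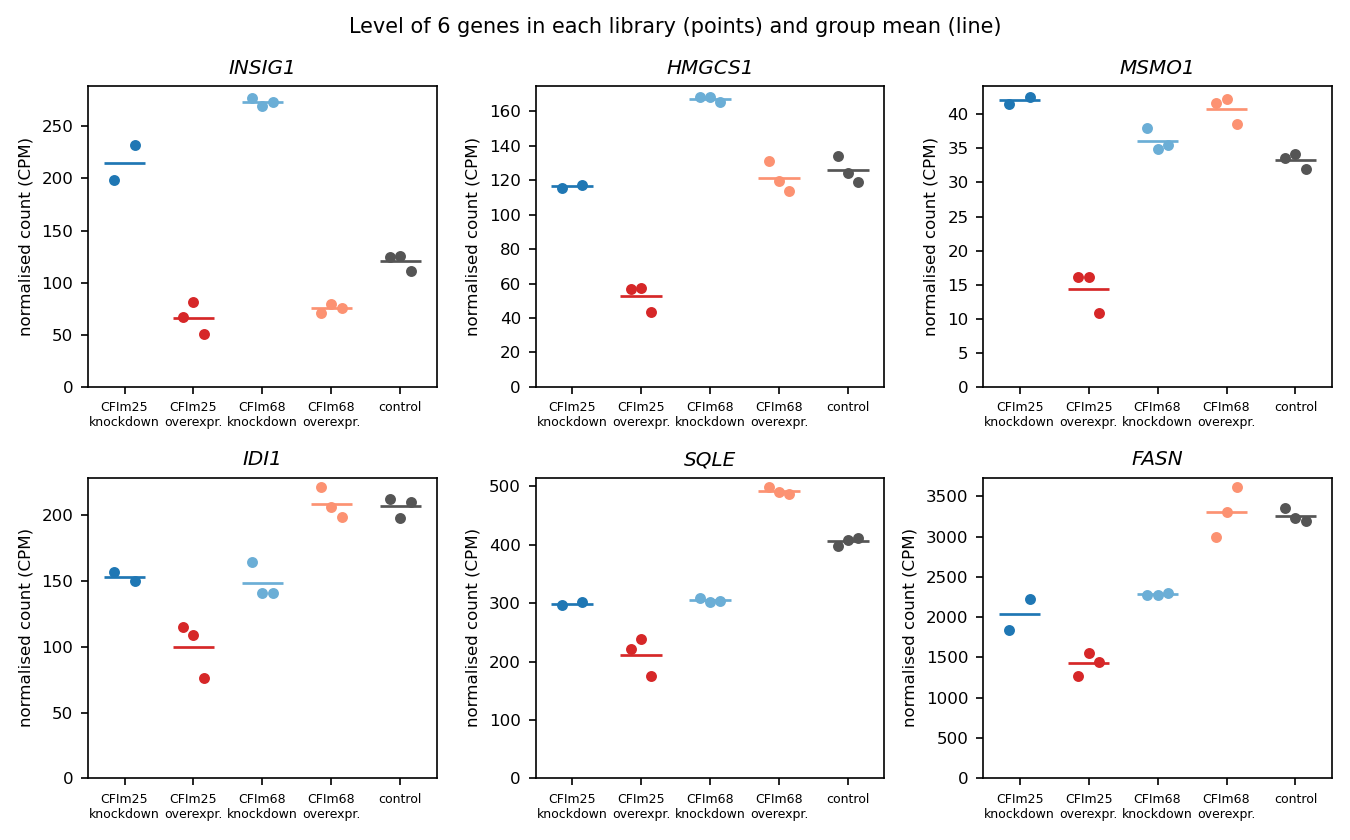
Level in CPM (vertical axis, linear, from 0) of INSIG1, HMGCS1, MSMO1, IDI1, SQLE and FASN in each of the 14 libraries, with the group mean as a line. For MSMO1 the CFIm25 overexpression libraries lie at 10.9 to 16.2 CPM and all other libraries at 32.0 CPM or more.

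Squalene is made by FDFT1 and oxidised by SQLE, a rate-limiting step of the sterol branch. SQLE (ENSG00000104549, hg38 chr8:124998497-125022283) was at 221, 238 and 175 CPM in CFIm25 overexpression, against 397, 409 and 412 CPM in control, 1.92-fold lower (log2 change -0.94 ± 0.07, edgeR adjusted p = 1.7e-12). It was also lower in CFIm25 knockdown at 297 and 301 CPM (log2 change -0.44 ± 0.07, edgeR adjusted p = 1.6e-05) and in CFIm68 knockdown at 309, 302 and 304 CPM (log2 change -0.41 ± 0.06, edgeR adjusted p = 4.2e-06). In CFIm68 overexpression it was at 499, 491 and 487 CPM and higher (log2 change 0.28 ± 0.06, edgeR adjusted p = 0.00161), so the CFIm68 overexpression libraries stood above control and those of the other 3 groups below, without overlap. The 50 neighbours of SQLE had medians of -0.36 in CFIm25 overexpression and 0.18 in CFIm68 overexpression. With them removed the fall in CFIm25 overexpression was -0.58 and still passed, and the rise in CFIm68 overexpression did not pass (0.10, edgeR adjusted p = 0.319). FDFT1 was at 11.2, 14.8 and 10.6 CPM in CFIm25 overexpression, against 20.5, 18.9 and 20.8 CPM in control (log2 change -0.72 ± 0.10, edgeR adjusted p = 3.2e-07). It was higher in both knockdowns, at 25.8 and 26.7 CPM in CFIm25 knockdown (0.39 ± 0.09) and 27.1, 26.0 and 26.2 CPM in CFIm68 knockdown (0.40 ± 0.09; edgeR adjusted p = 0.00105 and 2.3e-04). With its neighbours' medians removed, the rise of FDFT1 did not pass in CFIm25 knockdown (0.21, edgeR adjusted p = 0.0747) and was smaller in CFIm68 knockdown (0.23, edgeR adjusted p = 0.0266).

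LSS closes squalene epoxide to lanosterol, CYP51A1 removes its first methyl group, and TM7SF2 and LBR then reduce a ring bond. LSS fell in CFIm25 overexpression to 86.1, 99.2 and 84.9 CPM, against 151, 139 and 145 CPM in control (log2 change -0.69 ± 0.07, edgeR adjusted p = 1.1e-09), and by -0.38 with its neighbours' medians removed, which still passed. LSS was also lower in CFIm68 knockdown (log2 change -0.20 ± 0.06, edgeR adjusted p = 0.00968), but not past the test without control replicate 1 (-0.17, edgeR adjusted p = 0.0542). In CFIm68 overexpression it was lower at 114, 126 and 136 CPM (log2 change -0.21 ± 0.07, edgeR adjusted p = 0.0174), a fall that did not pass with the neighbours' medians removed (-0.10, edgeR adjusted p = 0.32), without CFIm68 overexpression replicate 1 (-0.14, edgeR adjusted p = 0.114) or without control replicate 1 (-0.17, edgeR adjusted p = 0.0865). TM7SF2 was lower in CFIm68 knockdown at 22.2, 23.2 and 22.7 CPM, and higher in CFIm68 overexpression at 38.2, 40.9 and 46.2 CPM, against 31.6, 30.5 and 33.5 CPM in control (log2 changes -0.49 ± 0.07 and 0.39 ± 0.07, edgeR adjusted p = 1.9e-06 and 1.5e-04). It also fell in CFIm25 overexpression to 22.3, 23.8 and 24.8 CPM (log2 change -0.43 ± 0.08) with no overlap, and the fall was -0.25 with the medians of its neighbours removed. CYP51A1 fell in CFIm25 knockdown, CFIm25 overexpression and CFIm68 knockdown (log2 changes -0.19, -0.33 and -0.22), though in CFIm25 knockdown neither this fall nor that of TM7SF2 (-0.23) passed without either knockdown library. With the neighbours' medians removed the change of TM7SF2 in CFIm25 knockdown was -0.04, edgeR adjusted p = 0.721. LBR, the nuclear envelope reductase that does the same reaction as TM7SF2, had log2 changes of -0.03, 0.03, -0.16 and 0.17 in CFIm25 knockdown, CFIm25 overexpression, CFIm68 knockdown and CFIm68 overexpression, of which those in the CFIm68 groups passed. Its fall in CFIm68 knockdown did not pass without CFIm68 knockdown replicate 2 (-0.15, edgeR adjusted p = 0.0583). Its rise in CFIm68 overexpression did not pass with the neighbours' medians removed (0.09, edgeR adjusted p = 0.29), nor without CFIm68 overexpression replicate 1 (0.15, edgeR adjusted p = 0.06) or replicate 2 (0.17, edgeR adjusted p = 0.055). CYP51A1 shares 2943 exonic bases on its strand with 2 genes that have only clone names.

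MSMO1 and NSDHL, with HSD17B7, remove the remaining methyl groups of the sterol ring. MSMO1 (ENSG00000052802, hg38 chr4:165327623-165343160) was at 16.2, 16.2 and 10.9 CPM in CFIm25 overexpression, against 33.6, 34.2 and 32.0 CPM in control, 2.29-fold lower (log2 change -1.20 ± 0.09, edgeR adjusted p = 2.2e-11). It was higher in CFIm25 knockdown at 41.5 and 42.6 CPM (log2 change 0.34 ± 0.09, edgeR adjusted p = 0.00318) and in CFIm68 overexpression at 41.6, 42.3 and 38.6 CPM (log2 change 0.30 ± 0.09, edgeR adjusted p = 0.00948). Once the neighbours' medians were taken out, the rise in CFIm68 overexpression was lost (0.16, edgeR adjusted p = 0.205). HSD17B7 fell in both knockdowns. It was at 13.5 and 12.3 CPM in CFIm25 knockdown and 12.3, 11.4 and 9.95 CPM in CFIm68 knockdown, against 20.5, 22.2 and 20.9 CPM in control, 1.65-fold and 1.88-fold lower (log2 changes -0.72 ± 0.10 and -0.91 ± 0.09, edgeR adjusted p = 1.1e-06 and 1.5e-09). In both overexpression groups all libraries were below control, without passing the test, and with the neighbours' medians removed it passed as lower in CFIm68 overexpression (-0.29, edgeR adjusted p = 0.0221). HSD17B7 has 2 annotated pseudogenes by name. NSDHL was at 28.9, 29.8 and 29.6 CPM in CFIm68 overexpression, against 40.5, 36.2 and 41.8 CPM in control (log2 change -0.42 ± 0.08, edgeR adjusted p = 2.1e-04). Its neighbours on the X chromosome had a median of -0.28, and with that removed the call was lost (-0.14, edgeR adjusted p = 0.249). NSDHL fell in CFIm25 overexpression (-0.33, or -0.58 with the neighbours' medians removed) and rose in CFIm25 knockdown (0.36) and CFIm68 knockdown (0.24), and both rises were lost with the neighbours' medians removed (0.16 and 0.13).

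The last steps are catalysed by EBP, which moves a double bond of the sterol ring, SC5D, which introduces one, and DHCR7, which reduces one. All 3 were lower in CFIm25 overexpression, with log2 changes of -0.30, -0.54 and -0.46, the last of which was -0.29 with the neighbours' medians removed. SC5D was at 21.2, 21.1 and 21.1 CPM there and 41.0, 37.2 and 40.0 CPM in CFIm68 knockdown, against 30.5, 32.5 and 29.3 CPM in control, lower in the overexpression group (log2 change -0.54 ± 0.07, edgeR adjusted p = 2.4e-07) and higher in the knockdown (log2 change 0.36 ± 0.07, edgeR adjusted p = 3.3e-05). DHCR7 also passed as higher in CFIm68 knockdown (log2 change 0.24 ± 0.09), but not without CFIm68 knockdown replicate 3 (0.12, edgeR adjusted p = 0.277). The call was also lost without control replicate 1 (0.23, edgeR adjusted p = 0.0694) or control replicate 3 (0.23, edgeR adjusted p = 0.0718). EBP and SC5D passed as higher in CFIm68 overexpression by 0.15 and 0.20 on the log2 scale, both lost without some single libraries. STARD4, which carries sterol between membranes, rose in both knockdowns, at 19.4 and 17.5 CPM in CFIm25 knockdown and 19.8, 19.2 and 19.8 CPM in CFIm68 knockdown, against 15.1, 15.5 and 13.1 CPM in control (log2 changes 0.34 ± 0.10 and 0.43 ± 0.09, edgeR adjusted p = 0.00801 and 2.5e-04). The rise in CFIm25 knockdown was lost without CFIm25 knockdown replicate 1 (0.27, edgeR adjusted p = 0.0956) or control replicate 3 (0.26, edgeR adjusted p = 0.0512). NPC1, the lysosomal sterol exporter, is listed at 0 in all 14 libraries and was not tested. Why it is listed at 0 is not known, and this was not read as absence of its RNA.

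Fatty acid synthesis draws on ACLY and ACSS2, which supply acetyl-CoA, on ACACA, which is listed at 0 in all 14 libraries for a reason the sources used here do not give and was not tested, and on FASN, the synthase that builds palmitate. FASN (ENSG00000169710, hg38 chr17:82078333-82098332) had the highest level per kilobase of exon of all members in control, at 348 ± 9.498 RPKM (CPM divided by the exon length in kilobases), and STARD4 the lowest detected one, at 2.56 ± 0.228 RPKM (SD, n = 3). FASN was at 1274, 1557 and 1448 CPM in CFIm25 overexpression, against 3361, 3226 and 3194 CPM in control, 2.29-fold lower (log2 change -1.19 ± 0.07, edgeR adjusted p = 1.9e-14). It was also lower in CFIm25 knockdown at 1841 and 2228 CPM (log2 change -0.68 ± 0.08, edgeR adjusted p = 3.3e-08) and in CFIm68 knockdown at 2274, 2281 and 2306 CPM (log2 change -0.51 ± 0.07, edgeR adjusted p = 2.2e-07). All libraries of these 3 groups were below all controls, while the CFIm68 overexpression libraries, at 2994, 3303 and 3617 CPM, lay on both sides of them (log2 change 0.02 ± 0.07, edgeR adjusted p = 0.86). The chromosome 17 neighbours of FASN had medians of -0.19 in CFIm25 knockdown, -0.35 in CFIm25 overexpression and -0.29 in CFIm68 knockdown. With them removed FASN changed by -0.49, -0.84 and -0.22 in these groups and still passed.

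ELOVL6, which lengthens palmitate, was at 158, 155 and 154 CPM in CFIm68 overexpression, against 119, 118 and 112 CPM in control, and rose (log2 change 0.42 ± 0.05, edgeR adjusted p = 9.9e-07). It was lower in both CFIm25 groups, at 88.8 and 92.8 CPM in CFIm25 knockdown and 95.4, 93.1 and 83.5 CPM in CFIm25 overexpression (log2 changes -0.35 ± 0.06 and -0.36 ± 0.06, edgeR adjusted p = 2.5e-05 and 3.2e-06). In these 3 groups no library overlapped control, and in CFIm68 knockdown ELOVL6 did not pass (log2 change -0.06 ± 0.05, edgeR adjusted p = 0.378). SCD, which puts the first double bond into saturated chains, fell in CFIm25 overexpression to 272, 293 and 244 CPM, against 382, 391 and 353 CPM in control (log2 change -0.48 ± 0.06, edgeR adjusted p = 3.7e-08). FADS1, a desaturase of polyunsaturated chains, was at 525, 525 and 530.4 CPM in CFIm68 overexpression, against 425, 423 and 422 CPM in control, and rose (log2 change 0.32 ± 0.04, edgeR adjusted p = 3.4e-06). In CFIm25 knockdown FADS1 was at 359.6 and 357 CPM and FADS2 at 125 and 144 CPM, with log2 changes of -0.24 and -0.24, though FADS2 did not pass without CFIm25 knockdown replicate 1 (log2 change -0.15, edgeR adjusted p = 0.138). In CFIm25 overexpression neither passed, but with the neighbours' medians removed both were higher (0.16, edgeR adjusted p = 0.00327 for FADS1, and 0.17, edgeR adjusted p = 0.0129 for FADS2), and FADS2 did not pass in CFIm25 knockdown (-0.15, edgeR adjusted p = 0.0642). FADS1 and FADS2 overlap on opposite strands, and whether the counting used strand is not given, so their reads may not be fully separated.

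ACSS2 and ACLY moved against ELOVL6 in CFIm68 overexpression. ACSS2 was at 17.5, 18.3 and 17.4 CPM there, against 23.4, 22.3 and 21.1 CPM in control, and fell (log2 change -0.33 ± 0.08, edgeR adjusted p = 0.00242). ACLY was at 1251, 1242 and 1226 CPM, against 1478, 1381 and 1494 CPM in control, and fell as well (log2 change -0.23 ± 0.05, edgeR adjusted p = 5.5e-04). The CFIm68 overexpression libraries of neither gene overlapped control, but the neighbours of ACSS2 had a median of -0.17 and those of ACLY -0.13, and with these removed neither gene passed (-0.16, edgeR adjusted p = 0.164 for ACSS2, and -0.09, edgeR adjusted p = 0.181 for ACLY). ACSS2 was higher in both knockdowns, at 26.4 and 26.0 CPM in CFIm25 knockdown and 27.1, 27.7 and 26.9 CPM in CFIm68 knockdown (log2 changes 0.23 ± 0.08 and 0.29 ± 0.07, edgeR adjusted p = 0.0167 and 0.00114). Its neighbours had medians of 0.25 and 0.18 in those groups, and with them removed ACSS2 changed by -0.01 and 0.11 and did not pass. ACLY passed as higher in CFIm25 knockdown at 1596 and 1748 CPM (log2 change 0.20 ± 0.05), but not without CFIm25 knockdown replicate 2 (0.14, edgeR adjusted p = 0.0983).

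Set directly against each other, the overexpression groups differed across most of the pathway. In CFIm68 overexpression 23 of 33 members were higher than in CFIm25 overexpression and 6 lower (edgeR, 32.9% and 30.8% of all genes), with a median log2 difference of 0.36. The higher ones included 5 of 6 mevalonate enzymes and 10 of 12 squalene and sterol enzymes, with no squalene or sterol enzyme lower. MSMO1, at 41.6, 42.3 and 38.6 CPM in CFIm68 overexpression and 16.2, 16.2 and 10.9 CPM in CFIm25 overexpression, differed most (2.81-fold, log2 difference 1.49 ± 0.09, edgeR adjusted p = 7.9e-14). SQLE was 2.33-fold higher (log2 difference 1.22 ± 0.07, edgeR adjusted p = 3.0e-15) and FASN 2.32-fold higher (1.21 ± 0.07, edgeR adjusted p = 6.1e-15). With neighbours' medians removed from both groups the difference was 0.68 for SQLE and 0.93 for FASN. INSIG1 was low in both, and did not pass between them (0.19 ± 0.10, edgeR adjusted p = 0.0942), though it did with the neighbours' medians removed (0.45, edgeR adjusted p = 2.7e-04) and without CFIm25 overexpression replicate 2 (0.34, edgeR adjusted p = 0.00162). The 6 lower in CFIm68 overexpression were PMVK, GGPS1, SCAP, SREBF1, ACLY and ACSS2. With the neighbours' medians removed, PMVK and GGPS1 passed as lower, SREBF1, ACLY and ACSS2 did not pass, and SCAP passed as higher (0.22, edgeR adjusted p = 0.00203).

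The knockdown groups differed in fewer members. In CFIm68 knockdown 7 of 33 members were higher than in CFIm25 knockdown and 2 lower (edgeR, 11.1% and 13.2% of all genes), with a median log2 difference of 0.04. HMGCS1, at 168, 169 and 166 CPM in CFIm68 knockdown and 116 and 117 CPM in CFIm25 knockdown, differed most (log2 difference 0.52 ± 0.08, edgeR adjusted p = 1.1e-05), with no overlap. ELOVL6 was at 108, 112 and 115 CPM in CFIm68 knockdown and 88.8 and 92.8 CPM in CFIm25 knockdown (log2 difference 0.30 ± 0.06, edgeR adjusted p = 5.0e-04). INSIG1 was higher in CFIm68 knockdown as well (0.34 ± 0.10, edgeR adjusted p = 0.0101), which did not pass without CFIm25 knockdown replicate 1 (0.24, edgeR adjusted p = 0.235) and with the neighbours' medians removed (0.24, edgeR adjusted p = 0.0703). Without CFIm25 knockdown replicate 1 the higher members numbered 3, and without CFIm68 knockdown replicate 1 or 3 they numbered 4. CFIm25 knockdown has 2 libraries, here as in its comparison with control.

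**Figure D5:**
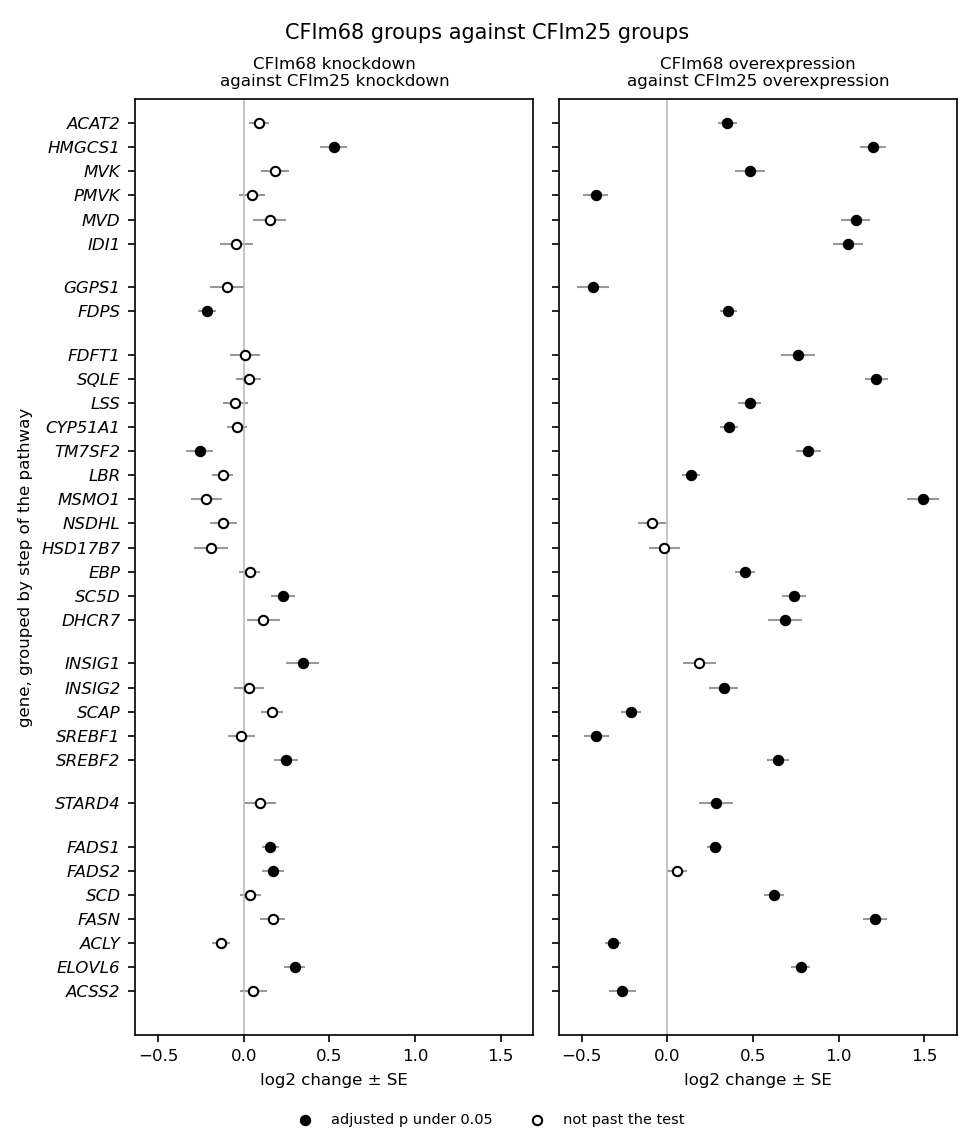
Log2 difference (horizontal axis, log2 scale) with its SE for each of the 33 tested genes, of CFIm68 knockdown over CFIm25 knockdown (left) and CFIm68 overexpression over CFIm25 overexpression (right). Filled points passed the edgeR test; most of those on the right panel lie right of 0, up to 1.49 for MSMO1, while 9 points on the left panel are filled.

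Genes around the pathway were read from lists of their own, whose counts stand beside the shares of all genes given above. Of 9 tested genes of SREBP processing and sterol-driven degradation, 6 were higher and 0 lower in CFIm68 overexpression at an edgeR adjusted p under 0.05, while 3 were higher and 4 lower in each CFIm25 group and 2 and 2 in CFIm68 knockdown. TRIM13, a ubiquitin ligase of the endoplasmic reticulum, averaged 4.31 ± 0.223 CPM in CFIm68 knockdown, against 12.2 ± 1.13 CPM in control (SD, n = 3 each; log2 change -1.50 ± 0.10, edgeR adjusted p = 1.3e-12). Its change was -0.80, edgeR adjusted p = 7.4e-07 in CFIm25 knockdown and 0.63, edgeR adjusted p = 4.9e-06 in CFIm68 overexpression. MBTPS1 and MBTPS2, the proteases that release the SREBPs in the Golgi, went opposite ways in CFIm25 overexpression (-0.41, edgeR adjusted p = 1.1e-08, and 0.44, edgeR adjusted p = 5.1e-06). ERLIN2, which takes part in degrading sterol-regulated proteins, was higher in CFIm25 knockdown (0.54, edgeR adjusted p = 5.6e-06) and in CFIm68 knockdown (0.53, edgeR adjusted p = 1.1e-06).

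In the list of sterol transport, esterification and LXR targets, 15 were tested, with 7 higher and 3 lower in CFIm25 knockdown, 5 and 2 in CFIm25 overexpression, 7 and 2 in CFIm68 knockdown and 3 and 1 in CFIm68 overexpression. ABCG1, a sterol exporter, averaged 11.5 ± 0.725 CPM in CFIm68 knockdown, against 5.41 ± 0.264 CPM in control (SD, n = 3 each; log2 change 1.08 ± 0.11, edgeR adjusted p = 1.7e-09), and also rose in CFIm25 knockdown (0.58, edgeR adjusted p = 3.5e-04) and CFIm25 overexpression (0.88, edgeR adjusted p = 2.2e-07). SOAT1, which esterifies cholesterol for storage, rose in CFIm68 knockdown (0.56, edgeR adjusted p = 9.7e-10). Of 13 tested genes of isoprenoid branches, 4 rose and 4 fell in each knockdown, 2 and 2 in CFIm25 overexpression and 3 and 2 in CFIm68 overexpression. DHDDS, which makes dolichol precursors, rose in CFIm25 knockdown (0.46, edgeR adjusted p = 5.7e-05) and in CFIm68 knockdown (0.50, edgeR adjusted p = 2.8e-06), and COQ2, which joins the tail to coenzyme Q, rose in CFIm68 knockdown (0.50, edgeR adjusted p = 2.1e-07) and fell in CFIm68 overexpression (-0.25, edgeR adjusted p = 0.00912).

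Of 15 tested genes that elongate, desaturate or activate fatty acids, 8 fell and 2 rose in CFIm25 overexpression, 3 fell and 4 rose in CFIm25 knockdown, 5 fell and 3 rose in CFIm68 knockdown, and 1 fell and 4 rose in CFIm68 overexpression. ELOVL2, an elongase of polyunsaturated chains, averaged 66.9 ± 5.54 CPM in CFIm68 knockdown, against 138 ± 1.93 CPM in control (SD, n = 3 each; log2 change -1.05 ± 0.06, edgeR adjusted p = 6.1e-14). ELOVL1, which elongates saturated chains, and DEGS1, a ceramide desaturase, fell in CFIm25 overexpression (-0.51, edgeR adjusted p = 1.6e-07, and -0.49, edgeR adjusted p = 4.4e-08). SCD5, a paralogue of SCD, rose in CFIm68 overexpression (0.46, edgeR adjusted p = 3.4e-07). Of 13 tested genes of precursor and NADPH supply and their regulators, 2 rose and 4 fell in each overexpression group, 4 and 4 in CFIm25 knockdown and 3 and 4 in CFIm68 knockdown. IDH1, a cytosolic source of NADPH, averaged 88.6 ± 10.9 CPM in CFIm25 overexpression, against 164 ± 7.82 CPM in control (SD, n = 3 each; log2 change -0.89 ± 0.07, edgeR adjusted p = 7.8e-12), and fell in CFIm68 knockdown as well (-0.72, edgeR adjusted p = 3.4e-10). ME1, another listed NADPH source, fell in CFIm68 overexpression (-0.42, edgeR adjusted p = 6.9e-07).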

How the data were processed

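RNA of 14 HEK 293 libraries in 5 groups was measured with a TruSeq Stranded mRNA kit, per the labels' protocols. The authors deposited a table of raw read counts per gene, and the submitters' processing notes name cutadapt 1.16, STAR 2.7.1a and the build hg38. The sources used here do not give how reads were counted, on which annotation or whether by strand. The table lists 18006 genes, 17959 of them with a name found, and 2524 without a read in any library. Counts were fitted in edgeR 4.0.16 (R 4.3.3) by the quasi-likelihood test with 1 coefficient per group over all 14 libraries, TMM scaling (factors 0.973 to 1.05) and filterByExpr (minimum count 10, minimum total 15). P-values were adjusted by Benjamini-Hochberg over 12080 genes, with a threshold of 0.05. SEs come from the quasi-likelihood statistic, and the method was tested on simulated counts. CPM use TMM-scaled library sizes, and RPKM adds GENCODE 29 exon length. Within groups, libraries correlated at 0.996 to 0.998 across genes, and no 2 held identical values.

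Alternatives were DESeq2 1.42.0 size factors and test, limma 3.58.1 voom, other filters, only the 2 groups compared, the replicate number as a block and each library left out. Removal of the median change of the 50 genes nearest on the chromosome was chosen after seeing the data. Described in full are the 6 called members with a mean of at least 5 CPM that changed most against control in each group, the 3 such members in each direct comparison, and up to 2 genes of each surrounding list in a comparison, some of which are not reported here; other members are given more briefly. SCAP, INSIG2 and others outside that rule were named with their values seen. The members and lists were chosen with earlier results of these data known. Promoter windows are from RefSeq on GRCh38.p14. Members sharing exonic bases on 1 strand with another gene are GGPS1, CYP51A1, TM7SF2, FADS1 and FADS2. Python 3.11.15, pandas 2.3.3 and matplotlib 3.10.9 made the tables and figures.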

Additional observations from a re-analysis of the deposited data

Results flagged for a closer look

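In 9 members the overexpression of CFIm68 and of CFIm25 moved the level to opposite sides of control, with both changes past the test, and the direct edgeR test between the overexpression groups passed. These conditions picked the 9, so the direct pass adds no separate support. How many of all tested genes meet the same conditions was not counted. Among all tested genes 27.7% were higher and 29.1% lower in CFIm25 overexpression, and 14.5% and 15.4% in CFIm68 overexpression. The log2 difference of CFIm68 overexpression over CFIm25 overexpression was 1.49 for MSMO1, 1.22 for SQLE and 1.10 for MVD. It was 0.82 for TM7SF2, 0.78 for ELOVL6 and 0.74 for SC5D. It was 0.65 for SREBF2, 0.62 for SCD and 0.45 for EBP. All 9 also passed in the direct test with the medians of the 50 nearest genes removed, from 0.39 for EBP to 1.47 for MSMO1. The rise against control in CFIm68 overexpression did not pass under that setting for MSMO1, SQLE, MVD, SC5D, SCD and EBP. For MVD, SC5D, SCD and EBP this rise was also lost without some single libraries. For SCD these included CFIm68 overexpression replicate 2 (0.13, edgeR adjusted p = 0.146) and control replicate 3 (0.10, edgeR adjusted p = 0.208).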

How the results depend on the processing

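Of 2706 values of single members under other settings, leaving out a library ended 69 calls and added 11. The other planned settings ended 12 and added 22, and removal of neighbours' medians ended 28 and added 18. That removal also changed the sign of 10 further values that passed the test with or without it. These 10 are not in the counts of ended and added calls. Depth and 2 or 3 libraries a group limit the small changes, and NPC1 and ACACA, listed at 0 for an unknown reason, could not be tested. Replicate numbers did not pair the libraries: correlations of same-numbered deviations ran from -0.07 to 0.25, so the replicate block is given once. With it the members lower in CFIm25 knockdown numbered 14, those higher in CFIm68 overexpression 12, and those higher in the direct comparisons 8 for knockdown and 24 for overexpression, with median changes of 0.0064 in CFIm25 knockdown and 0.058 between knockdowns. Over the libraries left out, the median change of the members ranged over -0.0070 to 0.0071 in CFIm25 knockdown, 0.022 to 0.086 in CFIm68 overexpression, 0.018 to 0.045 between knockdowns and 0.31 to 0.40 between overexpressions. The members higher ranged over 6 to 10 in CFIm68 overexpression and 3 to 6 between knockdowns, where those lower ranged over 1 to 2, all genes higher over 591 to 1101 (main 1340) and all genes lower over 874 to 1283 (main 1589). Without a filter the median in CFIm25 knockdown was 0.029, and 4 members were lower between knockdowns. With only the 2 groups compared, 5 members were lower and 2052 genes higher between knockdowns, and the median between overexpressions was 0.34. With neighbours' medians removed, the member median was -0.040 in CFIm25 knockdown, -0.027 in CFIm68 knockdown, 0.085 in CFIm68 overexpression, 0.069 between knockdowns and 0.45 between overexpressions. Under it 5 members were higher in CFIm25 overexpression, 4 in CFIm68 overexpression, where 1179 genes were lower (main 1859), and 4 and 3 members were lower between knockdowns and between overexpressions. It changed the sign of SCAP (-0.21) and ACSS2 (-0.013) in CFIm25 knockdown and of SCAP (-0.28), INSIG2 (0.027) and PMVK (0.20) in CFIm25 overexpression. Between overexpressions it changed the sign of SCAP (0.22), INSIG2 (-0.018), ACSS2 (0.16), FADS2 (-0.14) and NSDHL (0.45). Only SCAP between overexpressions passed the test with both signs. The values of ACSS2 and INSIG2 no longer passed, and the remaining ones had not passed before the removal. The cause was not tested.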

Other observations

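Fatty acid breakdown was read beside synthesis. Among all tested genes, 24.4% were higher and 23.2% lower in CFIm25 knockdown, and 27.7% and 29.1% in CFIm25 overexpression. The shares were 28.3% and 28.1% in CFIm68 knockdown and 14.5% and 15.4% in CFIm68 overexpression. The counts of the list below were not tested against these shares. Of 18 tested genes of fatty acid oxidation, 8 were higher and 3 lower in CFIm25 knockdown, 3 higher and 7 lower in CFIm25 overexpression, 9 higher and 3 lower in CFIm68 knockdown, and 1 higher and 6 lower in CFIm68 overexpression, with median log2 changes of 0.16, -0.07, 0.15 and 0.00 in that order. DECR1, a mitochondrial reductase needed for unsaturated chains, averaged 47.8 ± 3.50 CPM in CFIm25 knockdown (n = 2), against 32.6 ± 2.45 CPM in control (SD, n = 3; log2 change 0.55 ± 0.08, edgeR adjusted p = 1.0e-06). It rose in CFIm68 knockdown (0.46, edgeR adjusted p = 1.7e-06) and fell in CFIm68 overexpression (-0.39, edgeR adjusted p = 2.4e-04). ECI1, an isomerase of the same chains, fell in CFIm25 knockdown (-0.51, edgeR adjusted p = 1.3e-06) and CFIm68 knockdown (-0.60, edgeR adjusted p = 5.4e-09). CPT1A, which takes fatty acids into mitochondria, fell in CFIm25 overexpression (-0.64, edgeR adjusted p = 5.8e-06).

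Mitochondria have a separate fatty acid synthesis that feeds lipoic acid. Of its 6 tested genes, 3 rose and 1 fell in each knockdown, 3 rose and 0 fell in CFIm25 overexpression, and 1 rose and 1 fell in CFIm68 overexpression. These few genes were likewise not tested as a list against the shares of all genes. CBR4, a reductase subunit, averaged 26.3 ± 1.40 CPM in CFIm68 knockdown, against 66.3 ± 0.461 CPM in control (SD, n = 3 each; log2 change -1.34 ± 0.08, edgeR adjusted p = 1.5e-14), and fell in CFIm25 knockdown (-0.68, edgeR adjusted p = 1.0e-07). It rose in CFIm25 overexpression (0.63, edgeR adjusted p = 1.5e-08) and CFIm68 overexpression (0.24, edgeR adjusted p = 0.013). OXSM, the condensing enzyme, averaged 23.7 ± 1.70 CPM in CFIm25 overexpression, against 13.9 ± 0.458 CPM in control (SD, n = 3 each; log2 change 0.77 ± 0.09, edgeR adjusted p = 1.6e-08), and rose in CFIm25 knockdown (0.50, edgeR adjusted p = 7.9e-05) and CFIm68 knockdown (0.62, edgeR adjusted p = 4.7e-07).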
